A study of Mus musculus with 12 samples.

Results

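The AP-1 genes described here are *Fos*, *Fosb*, *Fosl1*, *Fosl2*, *Jun*, *Junb*, *Jund*, *Atf3*, *Batf* and *Batf3*, 10 of the 53379 genes in the count table. They were chosen by symbol, as the FOS-type, JUN-type and ATF/BATF-type members of the activator protein 1 (AP-1) family, with earlier results of these data known. Of the 53379 genes, 12386 passed the filter on low counts and were tested, among them 9 of the 10 AP-1 genes. *Fosl1* did not pass, with 1 to 14 counts per library.

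Bone marrow-derived macrophages (BMDMs) were grown from the femurs and tibias of 4 C57Bl/6J mice for 1 week in RPMI with 10% FCS and 20% medium conditioned by L929 cells, a fibroblast line that secretes the macrophage growth factor CSF1. After a night in 12-well plates, the cells of every mouse were divided, with no fenoterol or with 1 μM of this agonist of the beta2-adrenergic receptor (B2AR) for 1 h or 4 h in unchanged medium. This gave 3 groups (untreated, fenoterol 1 h, fenoterol 4 h) of 4 libraries, and the same untreated libraries served as the reference at both times. All 12 cultures were of C57Bl/6J cells with no altered allele named in the labels, and the study's methods give the mice as male and their age only as a range over all mice used for BMDMs. The p-values measure the spread between the cultures of these 4 mice.

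AP-1 is a dimer of basic leucine zipper (bZIP) proteins that binds DNA at the sequence TGACTCA and at related sites. FOS-type proteins have to pair with a JUN-type protein, JUN-type proteins can also pair with each other, and ATF3, BATF and BATF3 form dimers with JUN-type proteins. *Fos*, *Fosb* and *Junb* are classic immediate-early genes, which many cells transcribe within minutes of a signal such as cAMP, the second messenger made when B2AR is activated, and in macrophages AP-1 takes part in opening enhancers and in the transcription of inflammatory genes.

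The total count per library was 14580533 to 24153284, and the TMM factors ranged from 0.953 at 1 h to 1.042 at 4 h. The labelled cell type was checked against its markers. All 8 macrophage markers were tested, and their summed normalized count was 749000 to 785400 in untreated libraries, 724700 to 852300 at 1 h and 701500 to 788900 at 4 h. Most of this sum was *Lyz2*, with group means of 488600, 469300 and 429900, so it hides changes of other markers. Of the 8, *Cd14* was called higher (log2 2.385) and *Mertk* lower (-0.196) at 1 h. At 4 h 3 were called higher (*Cd14* with log2 2.515, *Itgam* and *Fcgr1*). The 4 called lower at 4 h were *Mertk* (-1.512), *Adgre1*, *Csf1r* and *Cd68*. The erythroid markers *Hba-a1*, *Hbb-bs* and *Hbb-bt* were at 0 in all 12 libraries, and the 6 T and NK cell markers summed to at most 5.12 normalized counts in a library (*Cd8a* at 0 in all 12), the 4 mast cell and basophil markers to at most 3.07 (*Mcpt4* at 0 in all 12). The B cell markers summed to 126.0 to 228.4, the neutrophil markers to 342 to 676, the dendritic cell markers to 7.40 to 36.6 and the stromal markers to 454 to 1424, over the 12 libraries, and of these lists no tested gene passed the threshold in any comparison.

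At 1 h, 5 of the 9 tested AP-1 genes rose, 2 fell and 2 did not pass the test. *Fos*, *Fosb*, *Fosl2*, *Junb* and *Jund* rose, from 1.56-fold for *Jund* to 838-fold for *Fosb*, while *Jun* and *Atf3* fell and *Batf* and *Batf3* did not pass. Of all 12386 genes tested, 10.0% were called higher and 10.1% lower at 1 h (edgeR's quasi-likelihood test, Benjamini-Hochberg adjusted p under 0.05). The median log2 fold change was 0.645 over the 9 AP-1 genes and -0.00486 over all genes tested, and the untreated and 1 h libraries did not overlap for 7 of the 9, as for 23.0% of all genes tested. Scaling by library size alone, in place of TMM, changed the share of higher calls among all calls at 1 h from 49.8% of 2493 to 32.5% of 2918, and the calls of the 9 genes were the same. In bulk RNA, more or fewer cells that express a gene and more or less RNA per cell cannot be told apart.

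At 4 h, 4 of the 9 rose (*Fos*, *Fosb*, *Fosl2*, *Junb*), 4 fell (*Jun*, *Atf3*, *Batf*, *Batf3*) and *Jund* did not pass the test, against 19.7% of all genes called higher and 20.4% called lower. The median log2 fold change was 0.206 over the 9 AP-1 genes and 0.0042 over all genes, and 8 of the 9 genes had no overlap between the untreated and 4 h libraries, as had 37.6% of all genes tested. Between 1 h and 4 h, 8 of the 9 fell and *Jun* rose, against 18.7% of all genes called higher and 19.8% called lower at 4 h relative to 1 h, and the median was -1.23 over the 9 genes and 0.00745 over all genes. Scaling by library size alone changed the share of higher calls between the times from 48.6% of 4773 to 65.7% of 5333, and of the 9 genes *Jund* then lost its call (adjusted p = 0.0561). At 4 h the 3 endothelial markers were all called higher (*Cdh5*, *Pecam1* and *Kdr*, log2 fold changes of 2.19, 2.96 and 1.22), with a summed normalized count of 66.7 to 141.7 in untreated libraries, 114.8 to 202.8 at 1 h and 351.3 to 436.5 at 4 h. Macrophages can express *Pecam1* as well, and the part of these genes in the AP-1 values at 4 h was not tested.

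**Figure D1:**
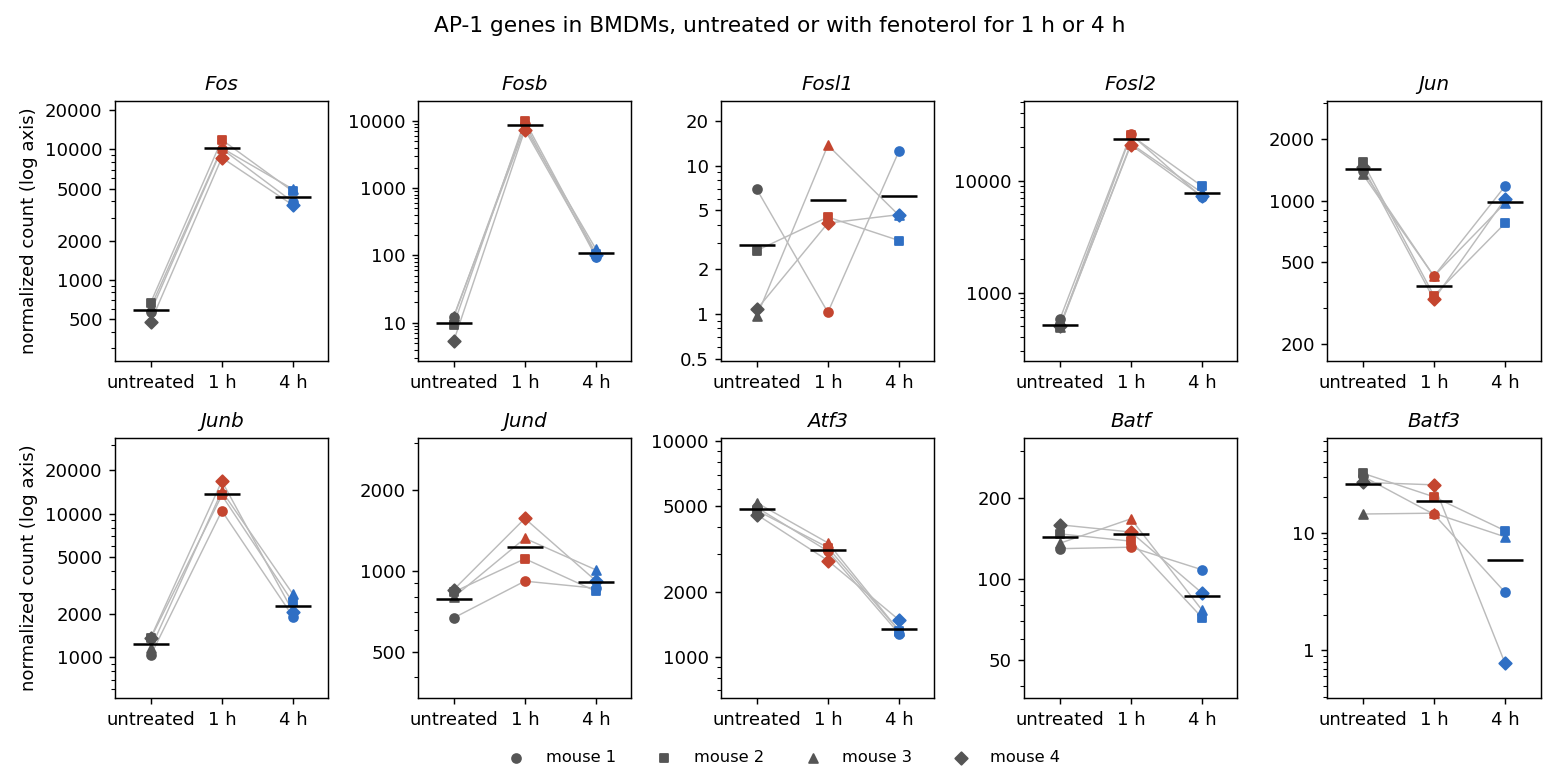
Normalized counts of the 10 AP-1 genes (log axes, a separate scale per gene) in untreated BMDMs and after 1 h or 4 h of fenoterol. Symbols mark the 4 mice, grey lines join libraries of the same mouse and black bars are group means. *Fos*, *Fosb*, *Fosl2* and *Junb* peak at 1 h in all 4 mice, *Jun* is lowest at 1 h in all 4, *Atf3* is lowest at 4 h in all 4, and *Fosl1* stays under 14 normalized counts in every library.

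**Figure D2:**
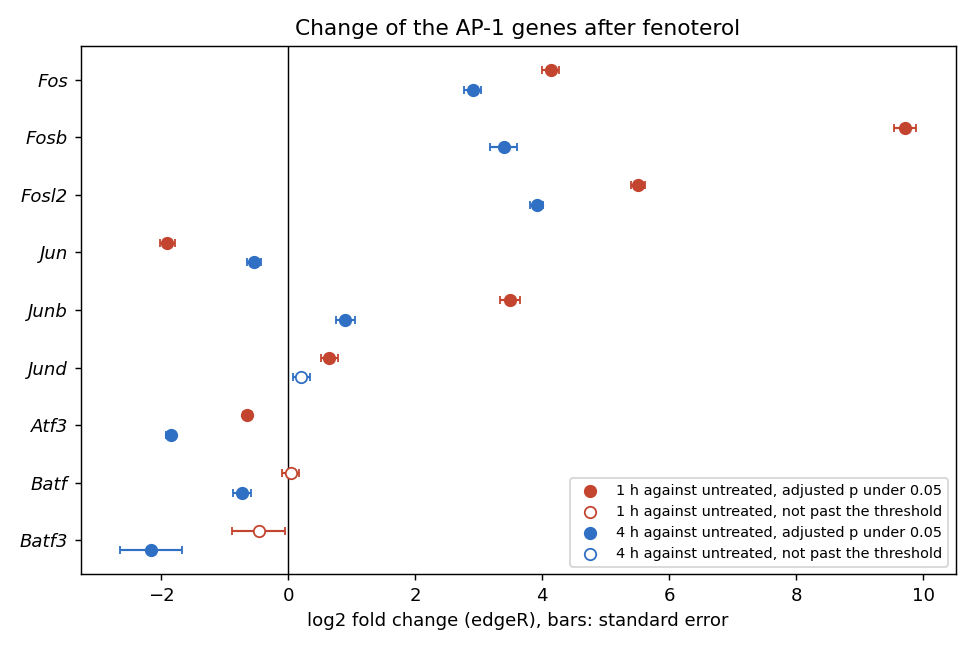
Log2 fold changes against untreated BMDMs at 1 h (red) and 4 h (blue) for the 9 tested AP-1 genes, with bars for the standard error; filled points have an adjusted p under 0.05. *Fosb* has the largest value at 1 h (9.71) and *Fosl2* at 4 h (3.91), and *Jun* and *Atf3* lie below 0 at both times.

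The 4 FOS-type genes encode the partners that JUN-type proteins need for the classic AP-1 dimer. Of the 3 that were tested, all rose at both times and all fell from 1 h to 4 h. In gene-level counts, isoforms are summed: *Fosb* also gives a shorter protein without the activating C-terminus (delta FosB), and its messenger is not separated here from that of the full protein.

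The promoters of the 3 tested FOS-type genes are shown because these genes rose most in the family. Each window, from RefSeq on GRCm38.p6, runs from 250 bases before the annotated start to 50 after it on the gene's own strand. The windows are chr12:85473640-85473939, plus strand for *Fos*, chr7:19309996-19310295, minus strand for *Fosb* and chr5:32136222-32136521, plus strand for *Fosl2*. Capitals mark the short form of the cAMP response element (CRE), TGACG, the first bases of the full CRE TGACGTCA, searched on both strands (CGTCA on the other).
*Fos* promoter: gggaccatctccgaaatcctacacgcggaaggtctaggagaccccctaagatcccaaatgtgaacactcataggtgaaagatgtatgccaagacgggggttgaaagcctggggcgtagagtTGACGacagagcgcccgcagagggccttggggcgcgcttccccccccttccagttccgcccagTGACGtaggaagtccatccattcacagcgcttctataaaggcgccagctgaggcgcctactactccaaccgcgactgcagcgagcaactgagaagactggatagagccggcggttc
*Fosb* promoter: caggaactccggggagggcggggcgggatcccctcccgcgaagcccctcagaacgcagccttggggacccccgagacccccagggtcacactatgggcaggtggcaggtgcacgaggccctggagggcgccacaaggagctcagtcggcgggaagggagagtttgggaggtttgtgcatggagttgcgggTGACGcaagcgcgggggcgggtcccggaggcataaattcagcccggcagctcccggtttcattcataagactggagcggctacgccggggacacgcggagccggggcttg
*Fosl2* promoter: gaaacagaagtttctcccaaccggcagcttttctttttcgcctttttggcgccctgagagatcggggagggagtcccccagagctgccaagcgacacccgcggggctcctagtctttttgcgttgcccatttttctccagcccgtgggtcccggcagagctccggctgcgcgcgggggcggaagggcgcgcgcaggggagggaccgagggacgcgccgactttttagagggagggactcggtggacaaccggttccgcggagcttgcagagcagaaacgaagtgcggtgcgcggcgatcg
The short motif stood at 129 and 66 bases before the start of *Fos* and at 60 before that of *Fosb*, counted at its first base, and was not in the *Fosl2* window. Of all 32851 RefSeq promoters of this length, 20.8% hold it. The RefSeq table held 9 of the 10 AP-1 genes, all but *Fosl1*, and 5 of the 9 had the motif (*Fos*, *Fosb*, *Junb*, *Atf3*, *Batf*). The full CRE (in 1.79% of all promoters), the AP-1 sites TGACTCA and TGAGTCA (5.2%) and the CArG box that serum response factor binds (1.63%) were in none of the 9 windows. The RefSeq window of *Jund* (chr8:70697489-70697788) ends upstream of the whole *Jund* gene in GENCODE M21, and the RefSeq starts of *Fosl2*, *Atf3* and *Batf3* lie inside the outer limits of theirs, so their windows need not cover the start in use. A match is a description of letters, and no match says only that these letters are not in this window.

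*Fos* (ENSMUSG00000021250, chr12:85473890-85477273, plus strand, GRCm38) encodes c-FOS, the founding member of the family. Its normalized counts in mice 1 to 4 were 569, 669.5, 617 and 475.5 in untreated BMDMs, 10107, 11868, 10256 and 8643 after 1 h of fenoterol and 3954, 4765, 4958 and 3739 after 4 h. The 3 groups did not overlap, with 1 h highest and untreated lowest in every mouse. The rise was 17.6-fold at 1 h (log2 4.13, SE 0.133, adjusted p = 1.589e-11) and 7.48-fold at 4 h (log2 2.90, SE 0.127, adjusted p = 3.11e-10). Within single mice the ratio to the untreated culture was 16.6 to 18.2 at 1 h and 6.95 to 8.04 at 4 h, and the fall between the times was 2.35-fold (adjusted p = 1.319e-06).

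*Fosb* (ENSMUSG00000003545, chr7:19302696-19310051, minus strand) was close to absent in untreated BMDMs, with 5 to 14 counts per library. Its normalized counts in mice 1 to 4 were 12.1, 9.37, 12.5 and 5.38 in untreated BMDMs, 8968, 9971, 7875 and 7338 at 1 h and 94.8, 106, 124 and 103 at 4 h. The lowest 1 h library was above the highest 4 h library, and the lowest 4 h library above the highest untreated one. *Fosb* ranked 1 of the 12386 genes at 1 h both by p-value and by absolute log2 fold change, at 838-fold (log2 9.71, SE 0.168, adjusted p = 6.36e-14). At 4 h the difference from untreated was 10.5-fold (log2 3.40, SE 0.213, adjusted p = 1.163e-08), and between 1 h and 4 h *Fosb* fell 79.6-fold, again rank 1 by both measures (log2 -6.32, SE 0.127, adjusted p = 5.1e-13). The ratio in single mice, which rests on these low untreated counts, was 628.5 to 1364 after 1 h of fenoterol and 7.83 to 19.1 after 4 h.

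*Fosl2* (ENSMUSG00000029135, chr5:32135801-32157842, plus strand) encodes FRA-2, a FOS-type protein without the strong activating domain of c-FOS. The 4 mice had 577, 493, 489 and 505 normalized counts in untreated BMDMs, 26014, 25455, 21456 and 20886 at 1 h and 7090.1, 8935, 7820.3 and 7248.5 at 4 h. As for *Fos*, the groups were apart and 1 h was the highest in each mouse. The rise was 45.4-fold at 1 h (log2 5.50, SE 0.110, adjusted p = 2.428e-13, rank 2 by p-value) and 15.1-fold at 4 h (log2 3.91, SE 0.103, adjusted p = 3.978e-12, rank 5 by p-value). From 1 h to 4 h it fell 3.02-fold (adjusted p = 7.597e-09).

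*Fosl1* (ENSMUSG00000024912, chr19:5447547-5455946, plus strand), which encodes FRA-1, had 61 counts in all 12 libraries and was not tested. Its normalized counts in mice 1 to 4 were 6.92, 2.68, 0.964 and 1.08 in untreated BMDMs, 1.03, 4.50, 13.7 and 4.10 at 1 h and 12.5, 3.13, 4.62 and 4.67 at 4 h, and all 3 groups overlapped. Against the untreated culture of the same mouse, *Fosl1* was higher at 4 h in 4 of 4 mice, 1.17- to 4.80-fold on at most 12 counts per library, and higher at 1 h in 3 of 4; neither was tested. *Ccdc85b* on the other strand covers 57.2% of the exon bases of *Fosl1* and had 528 counts, and since the strand option of the counting is not given in the sources used here, the few reads of *Fosl1* cannot be assigned with certainty.

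The 3 JUN-type genes went in different directions: *Junb* rose at both times, *Jund* rose at 1 h and did not pass the test at 4 h, and *Jun* fell at both times. *Junb* and *Jun* stand side by side below because they moved in opposite directions. Their RefSeq windows are chr8:84978699-84978998, minus strand for *Junb* and chr4:95052173-95052472, minus strand for *Jun*, with TGACG on either strand in capitals.
*Junb* promoter: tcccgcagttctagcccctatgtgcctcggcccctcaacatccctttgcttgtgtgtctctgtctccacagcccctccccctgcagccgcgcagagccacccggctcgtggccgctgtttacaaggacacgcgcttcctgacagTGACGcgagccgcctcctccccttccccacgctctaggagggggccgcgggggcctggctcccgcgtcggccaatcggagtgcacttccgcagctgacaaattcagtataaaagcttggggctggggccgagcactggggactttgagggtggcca
*Jun* promoter: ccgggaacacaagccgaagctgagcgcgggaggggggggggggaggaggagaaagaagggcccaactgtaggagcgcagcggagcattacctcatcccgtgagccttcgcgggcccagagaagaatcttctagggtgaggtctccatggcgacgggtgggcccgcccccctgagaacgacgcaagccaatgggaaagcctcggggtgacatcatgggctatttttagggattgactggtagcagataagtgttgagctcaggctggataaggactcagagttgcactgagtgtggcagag
In *Junb* the motif began 106 bases before the start, and the *Jun* window held none of the motifs searched.

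*Junb* (ENSMUSG00000052837, chr8:84974484-84978718, minus strand) encodes a JUN-type protein that activates weakly on its own and can hold back c-JUN. Its normalized counts in mice 1 to 4 were 1034, 1356, 1154 and 1373 in untreated BMDMs, 10454, 13415, 14359 and 16841 at 1 h and 1920.2, 2411, 2752 and 2082 at 4 h. All 4 libraries at 1 h were above all at 4 h, which were above all untreated ones. The rise was 11.2-fold at 1 h (log2 3.49, SE 0.155, adjusted p = 4.12e-10) and 1.87-fold at 4 h (log2 0.90, SE 0.144, adjusted p = 0.0001528), and the fall between the times 6.01-fold (adjusted p = 7.527e-09). Of the exon bases of *Junb*, 7.52% are shared with *Prdx2* on the other strand, which had 39481 counts in the 12 libraries against 67679 for *Junb*.

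*Jun* (ENSMUSG00000052684, chr4:95049034-95052222, minus strand) encodes c-JUN, the most potent activator of the JUN type. It had 1396, 1539.8, 1344 and 1461 normalized counts in untreated BMDMs of mice 1 to 4, 428, 344, 428 and 329.9 at 1 h and 1175, 775, 973 and 1018 at 4 h. The 3 groups did not overlap, and in each mouse 1 h was lowest and 4 h lay between 1 h and untreated. *Jun* was 3.74-fold lower than untreated at 1 h (log2 -1.90, SE 0.118, adjusted p = 1.594e-08) and 1.46-fold lower at 4 h (log2 -0.54, SE 0.111, adjusted p = 0.001198). From 1 h to 4 h it rose 2.57-fold (log2 1.36, SE 0.117, adjusted p = 4.864e-07), the only one of the 9 genes to do so. The antisense gene *Junos* overlaps 7.28% of its exon bases and had 113 counts in the 12 libraries against 11228 for *Jun*.

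*Jund* (ENSMUSG00000071076, chr8:70698949-70700616, plus strand) encodes the JUN-type protein that many resting cells make steadily. Untreated BMDMs of mice 1 to 4 had 668, 834, 798 and 852 normalized counts, those at 1 h 916, 1110.5, 1324 and 1569.8 and those at 4 h 862, 839.6, 1009 and 918. The 1 h libraries were all above the untreated ones, while the 4 h libraries overlapped both other groups. The rise was 1.56-fold at 1 h (log2 0.65, SE 0.134, adjusted p = 0.002982), and at 4 h the log2 difference from untreated was 0.21 (SE 0.135, adjusted p = 0.2506). The fall from 1 h to 4 h was -0.44 on the log2 scale (SE 0.133, adjusted p = 0.01742), and without the 1 h library of mouse 4 it was -0.30 with an adjusted p of 0.0597. Of the exon bases of *Jund*, 52.6% are shared with the antisense gene *Gm11175*, which had 95 counts against 11679.

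None of the 3 ATF/BATF-type genes was called higher at either time. *Atf3* fell at both times, and *Batf* and *Batf3* fell at 4 h. The window of *Atf3*, the family's highest gene in untreated BMDMs, is given from RefSeq at chr1:191183284-191183583, minus strand. This start lies inside the outer limits of the gene in GENCODE M21, which also holds a transcript that begins farther upstream. Capitals mark CGTCA, which is TGACG on the other strand.
*Atf3* promoter: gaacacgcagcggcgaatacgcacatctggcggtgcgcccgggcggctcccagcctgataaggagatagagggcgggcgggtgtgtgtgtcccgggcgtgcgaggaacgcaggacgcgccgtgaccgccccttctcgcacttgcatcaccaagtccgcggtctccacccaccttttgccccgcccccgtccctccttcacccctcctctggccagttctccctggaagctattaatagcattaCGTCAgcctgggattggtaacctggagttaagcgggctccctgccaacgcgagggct
The motif began 7 bases before this start.

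*Atf3* (ENSMUSG00000026628, chr1:191170296-191218039, minus strand) encodes a bZIP protein that is known as a stress-induced repressor of inflammatory genes in macrophages. Its normalized counts in mice 1 to 4 were 4941, 4787, 5193 and 4575 in untreated BMDMs, 3098, 3219, 3384 and 2800.5 at 1 h and 1284, 1322, 1324 and 1486 at 4 h. The groups did not overlap and fell in that order in every mouse. *Atf3* was 1.56-fold lower at 1 h (log2 -0.64, SE 0.0663, adjusted p = 4.629e-06) and 3.60-fold lower at 4 h (log2 -1.85, SE 0.0687, adjusted p = 7.036e-11). The further fall from 1 h to 4 h was 2.31-fold (adjusted p = 6.469e-09), and the 12 single-mouse ratios were all below 1.

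*Batf* (ENSMUSG00000034266, chr12:85686669-85709087, plus strand) encodes a short bZIP protein with no activating domain, which binds with JUN-type and IRF proteins. The counts were low: 129.8, 147, 136 and 159 normalized counts in untreated BMDMs of mice 1 to 4, 131, 138, 168 and 149.6 at 1 h and 108, 72.0, 76.8 and 88.8 at 4 h. Untreated and 1 h libraries overlapped (log2 0.04, SE 0.138, adjusted p = 0.8905, and -0.0283 when scaled by library size alone), and all 4 h libraries were below all others. At 4 h *Batf* was 1.65-fold lower than untreated (log2 -0.72, SE 0.141, adjusted p = 0.0008381).

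*Batf3* (ENSMUSG00000026630, chr1:191097847-191108945, plus strand), best known for its part in the development of cross-presenting dendritic cells, had 1 to 35 counts per library. Mice 1 to 4 had 30.3, 32.1, 14.5 and 26.9 normalized counts in untreated BMDMs, 14.4, 20.3, 14.7 and 25.6 at 1 h and 3.13, 10.4, 9.25 and 0.779 at 4 h. The first 2 groups overlapped (log2 -0.46, SE 0.418, adjusted p = 0.5198), and the 4 h libraries were below all others. The fitted value at 4 h was a log2 fold change of -2.15 (SE 0.487, adjusted p = 0.002539). The 4 dendritic cell markers summed to 18.3 to 36.6 normalized counts in untreated libraries, 15.7 to 23.6 at 1 h and 7.40 to 27.1 at 4 h, and their part in the *Batf3* values was not tested.

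Levels of different genes were compared per length, in TPM (a count per exon length, scaled to the same total in each library), computed from the counts and the summed length of each gene's exons. The summed level of the 10 AP-1 genes was 733 ± 16.0 TPM in untreated BMDMs, 2795 ± 164 after 1 h and 930 ± 78.2 after 4 h (mean ± SD, n = 4). In untreated BMDMs ATF/BATF-type genes made up 57.5% ± 2.66 of this level, JUN-type genes 35.2% ± 2.99 and FOS-type genes 7.34% ± 0.737. After 1 h FOS-type genes made up 49.3% ± 6.18, JUN-type genes 41.2% ± 6.70 and ATF/BATF-type genes 9.49% ± 0.821. At 4 h the shares were 51.2% ± 2.65, 35.4% ± 1.69 and 13.4% ± 1.64. The FOS-type share was at least 41.7% in all 8 treated libraries and at most 7.95% in all 4 untreated ones, whereas the JUN-type share overlapped between the groups. Within mice 1 to 4 the JUN-type share went from 32.2%, 36.9%, 33.1% and 38.4% untreated to 34.4%, 37.8%, 42.9% and 49.8% at 1 h. It was thus higher at 1 h in every mouse, and at 4 h higher than untreated in mice 1 and 3 and lower in mice 2 and 4. This was not tested.

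The ratio of summed FOS-type to summed JUN-type level was 0.211 ± 0.0329 in untreated BMDMs, 1.24 ± 0.340 after 1 h and 1.45 ± 0.142 after 4 h (SD, n = 4). The ratio at 1 h and at 4 h overlapped, with 0.838 to 1.61 at 1 h and 1.33 to 1.65 at 4 h. These are messenger levels, and proteins and dimers were not measured. Each group of genes also changed in its make-up. Among JUN-type genes, *Junb* made up 36.6% ± 1.49 in untreated BMDMs, 87.4% ± 0.613 after 1 h and 53.7% ± 4.68 after 4 h, and *Jun* made up 31.0% ± 2.08, 1.83% ± 0.559 and 16.9% ± 3.60. Among FOS-type genes, *Fosb* made up 0.512% ± 0.147, 16.8% ± 0.504 and 0.643% ± 0.0556, and *Fosl2* 17.7% ± 2.59, 29.8% ± 1.82 and 30.1% ± 1.88. Such shares depend on the gene length used. For *Jund*, 52.6% of the exon bases overlap *Gm11175*, and if reads there were left out of the counts, its level per length is understated.

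**Figure D3:**
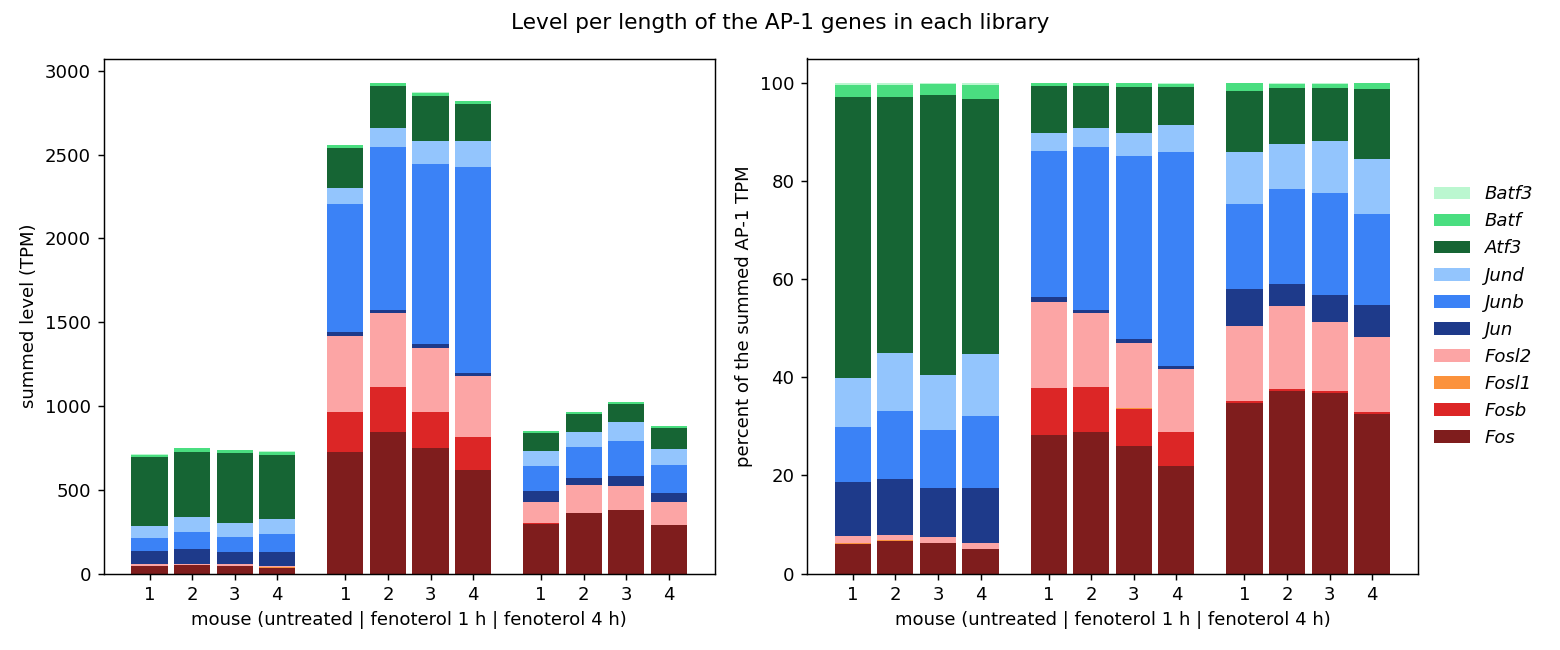
Summed level per length of the 10 AP-1 genes in each of the 12 libraries (left, TPM, linear axis from 0) and the share of each gene in that sum (right, percent). Red shades are FOS-type, blue shades JUN-type and green shades ATF/BATF-type genes. *Atf3* fills at least 52.1% of every untreated bar, and FOS-type genes fill at least 41.7% of every treated bar.

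The order of the levels also differed between the groups. In untreated BMDMs *Atf3* was highest with 400.4 ± 18.1 TPM, followed by *Junb* (94.6 ± 12.8), *Jund* (83.6 ± 8.78) and *Jun* (79.7 ± 4.995), whose ranges overlapped between neighbours, and then by *Fos* with 43.8 ± 5.87 TPM. Lower still were *Batf* (18.0 ± 1.73 TPM), *Fosl2* (9.43 ± 0.822) and *Batf3* (2.88 ± 0.895), each above the next without overlap, and *Fosb* (0.279 ± 0.0919) and *Fosl1* (0.254 ± 0.245), which overlapped. At 1 h *Junb* (1011 ± 195 TPM) and *Fos* (734 ± 93.4) led and overlapped, above *Fosl2* (409 ± 44.0), above *Atf3* (245 ± 21.3) and *Fosb* (231 ± 30.4), which overlapped, and above *Jund* (125 ± 28.7). At this time *Jun* (20.3 ± 2.97 TPM) overlapped with *Batf* (17.6 ± 2.08). With the longest transcript as gene length, *Atf3* and *Fosb*, and *Jun* and *Batf*, changed order, to 298 TPM for *Fosb* and 208 for *Atf3* and to 20.3 for *Batf* and 15.9 for *Jun*. At 4 h *Fos* was highest with 330.0 ± 45.0 TPM, *Junb* (178 ± 29.0) and *Fosl2* (143 ± 15.2) overlapped, as did *Atf3* (112 ± 8.54) and *Jund* (97.0 ± 8.65), and *Jun* had 55.1 ± 9.07 TPM.

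The 5 genes that rose at 1 h differed in how much of the rise was left at 4 h, measured in each mouse as the 4 h excess over untreated in percent of the 1 h excess. *Fos* kept 39.3% ± 4.29 (35.5% to 45.0%) and *Fosl2* 31.9% ± 4.25 (25.6% to 35.0%), whereas *Junb* kept 8.71% ± 3.11 (4.59% to 12.1%) and *Fosb* 1.16% ± 0.248 (0.924% to 1.42%), each as mean ± SD over 4 mice. The ranges of these 4 genes did not overlap, although the highest value of *Fosl2* was just below the lowest of *Fos*. For *Jund*, whose rise was small, the share ran from 1.94% to 78.1% over the mice and gives no usable value.

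**Figure D4:**
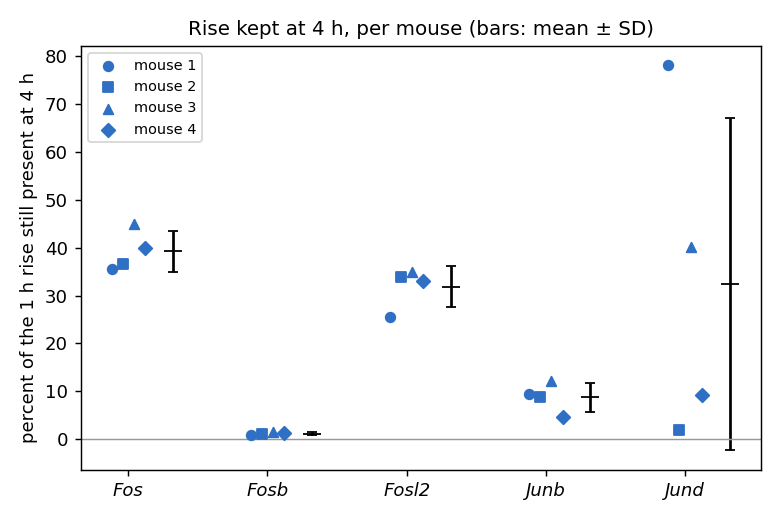
Percent of the 1 h rise over untreated that was still present at 4 h, for the 5 AP-1 genes that rose at 1 h. Symbols are the 4 mice and the bars show mean ± SD. *Fos* and *Fosl2* sit between 25.6% and 45.0%, *Junb* between 4.59% and 12.1%, *Fosb* at 1.42% or below, and *Jund* is spread from 1.94% to 78.1%.

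The genes with the most similar course, AP-1 genes included, over the 12 libraries were found by Pearson's r of log2 CPM among up to 10289 genes whose normalized counts averaged 50 or more. The 12 libraries are 3 groups of 4 from the same mice, so r mostly follows the 3 group means. Closest to *Fos* were *Ankrd33b* (r = 0.996), *Fosl2* (0.996) and *Nr4a2* (0.995), and among the closest to *Fosl2* were *Fos* and *Rassf3* (each 0.996). *Fosb* was closest to *Slc25a33* (0.997), *Osm* (0.996) and *Per1* (0.996), and *Junb* to *Per1* (0.992), *Zfp703* (0.991) and *Nr4a1* (0.990). *Per1* is a circadian clock gene, and *Nr4a1* and *Nr4a2* encode orphan nuclear receptors that are immediate-early genes themselves. For *Jun* the closest were *Sh3bp2* (0.975), *Zfp143* (0.975) and *Stambpl1* (0.974), and for *Atf3* they were *Tlr7* (0.997), which encodes a receptor for single-stranded RNA, *B3galnt1* (0.992) and *Slc35f5* (0.991). The closest to *Jund*, *Batf* and *Batf3* were *Zfp64* (0.897), *Tspan4* (0.970) and *Trpm4* (0.949), with *Batf* near the value of *Jun*.

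Some AP-1 genes lie close together on a chromosome. *Fos* and *Batf* mark the ends of a stretch of 235198 bases on chr12 with 6 annotated genes, 4 of them tested. Between them lies *Jdp2* (chr12:85599027-85639878, plus strand), which encodes a bZIP repressor that pairs with JUN-type proteins. *Jdp2* rose with a log2 fold change of 4.04 at 1 h (SE 0.119, adjusted p = 5.814e-12) and 2.00 at 4 h (SE 0.117, adjusted p = 5.945e-09), while *Batf* at the end of the stretch did not pass at 1 h and fell at 4 h. *Gm47863*, a noncoding gene that starts next to *Jdp2* on the other strand and was noted after its values were seen, had 0.92 at 1 h (adjusted p = 0.0635) and 0.90 at 4 h (adjusted p = 0.0389). *Batf3* and *Atf3* lie in a stretch of 120193 bases on chr1, where they were the only tested genes of 5.

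Other bZIP genes, which encode possible partners or competitors of AP-1 proteins, were followed as a list of 41 genes, of which 36 were tested. At 1 h 9 were higher, 8 lower and 19 not called, with a median log2 fold change of -0.0544, beside 10.0% higher, 10.1% lower and a median of -0.00486 over all genes tested. At 4 h 13 were higher, 10 lower and 13 not called, with a median of 0.0219, beside 19.7%, 20.4% and 0.0042 over all genes. Among genes that averaged 50 normalized counts or more, the same 4 had the largest changes at both times, all of them rises. *Crem*, whose short products repress CRE-driven genes, had 195 ± 33.8 normalized counts in untreated BMDMs, 5855 ± 1006 after 1 h and 3388 ± 357 after 4 h (SD, n = 4), log2 fold changes of 4.90 (SE 0.150, adjusted p = 8.245e-12) and 4.11 (SE 0.146, adjusted p = 5.127e-11). *Nfil3*, which encodes a bZIP repressor, rose from 307 ± 39.0 to 6521 ± 994 at 1 h and 1561 ± 262 at 4 h (log2 4.41 and 2.35). *Jdp2* rose from 170.2 ± 27.1 to 2814 ± 399 and 681 ± 39.0, and *Cebpb*, a regulator of myeloid gene expression, from 187 ± 25.2 to 1537 ± 295 and 654 ± 72.2 (log2 3.05 and 1.82).

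**Figure D5:**
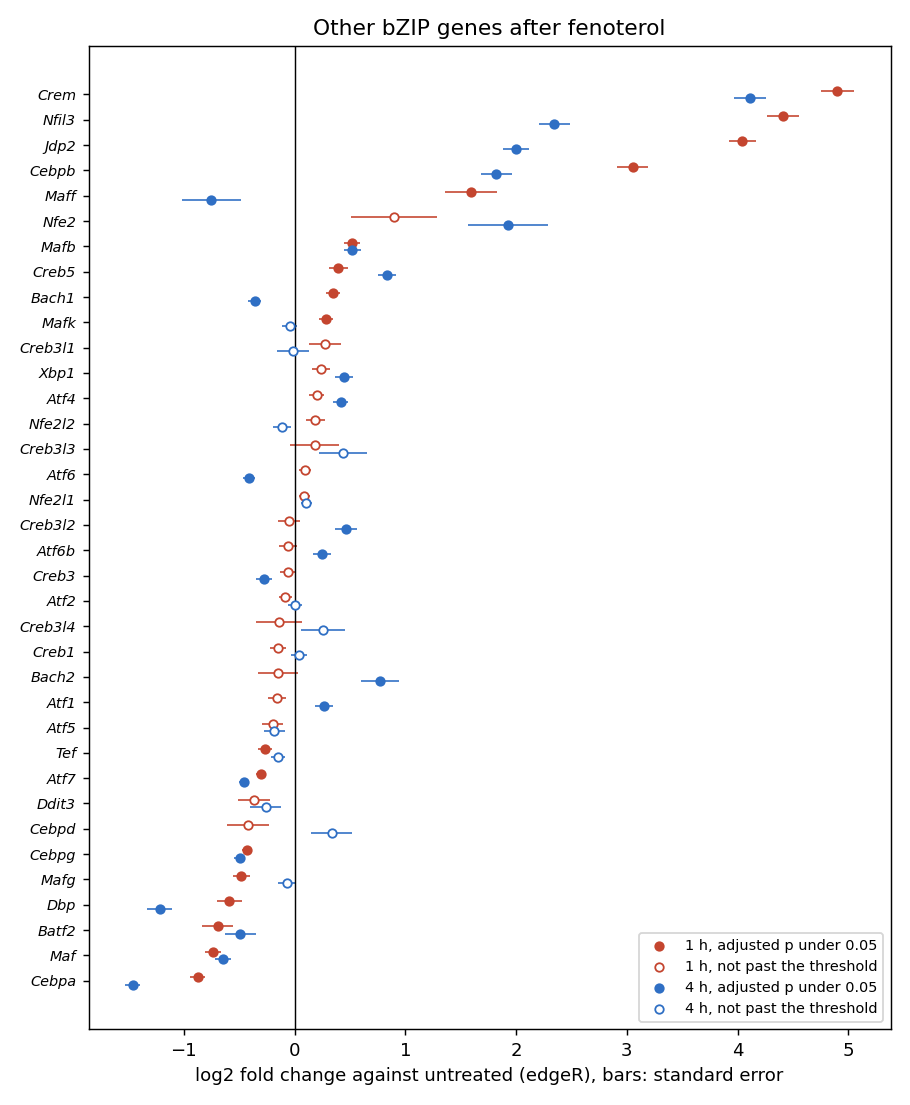
Log2 fold changes of the 36 tested bZIP genes outside the family at 1 h (red) and 4 h (blue) against untreated BMDMs, with bars for the standard error; filled points have an adjusted p under 0.05. *Crem*, *Nfil3*, *Jdp2* and *Cebpb* lie at 1.82 or above at both times, and *Cebpa*, noted after its values were seen, lies lowest at both times (-0.87 and -1.46).

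Genes of the kinases and transcription factors that act on AP-1 genes and proteins made up a list of 31, of which 28 were tested. At 1 h 6 were higher, 4 lower and 18 not called (median log2 -0.015), where 10.0% of all genes were higher and 10.1% lower (median -0.00486). At 4 h 10 were higher, 6 lower and 12 not called (median 0.117), where 19.7% of all genes were higher and 20.4% lower (median 0.0042), so the lower calls in the list were near the share over all genes. *Map3k8*, which encodes a kinase upstream of ERK, fell by 1.64 on the log2 scale at 1 h (SE 0.0785, adjusted p = 8.952e-10) and by 0.91 at 4 h (adjusted p = 2.127e-07). *Map2k3*, a kinase gene of the p38 branch, rose by 0.89 and 1.09 (adjusted p = 2.565e-07 and 1.47e-08), and *Map2k4*, of the JNK branch, by 0.28 and 0.86 (adjusted p = 0.008308 and 1.037e-07). *Srf*, which encodes the factor that binds the CArG box, rose by 0.46 and 0.58, and its coactivator gene *Mrtfa* by 0.73 and 0.57. *Elk3*, which encodes another partner of SRF, fell by 0.19 at 1 h and rose by 1.27 at 4 h (adjusted p = 0.02373 and 3.08e-10).

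Textbook AP-1 target genes formed a list of 26, of which 20 were tested. At 1 h 10 were higher, 2 lower (*Plau* and *Hmox1*, named after their values were seen) and 8 not called, with a median log2 fold change of 0.265, against 10.0% of all genes higher, 10.1% lower and a median of -0.00486. At 4 h 9 were higher, 5 lower and 6 not called (median 0.155), against 19.7% higher and 20.4% lower of all genes (median 0.0042). From 1 h to 4 h 2 rose, 13 fell and 5 were not called (median -0.603), against 18.7% higher and 19.8% lower (median 0.00745). *Ptgs2*, which encodes the inducible cyclooxygenase, had 5.55 ± 1.31 normalized counts in untreated BMDMs, 873 ± 281 after 1 h and 45.9 ± 7.39 after 4 h (SD, n = 4), with log2 fold changes of 7.29 (SE 0.300, adjusted p = 1.734e-10) and 3.04 (SE 0.380, adjusted p = 1.503e-05). *Il1b*, which encodes the cytokine IL-1 beta, went from 69.5 ± 28.9 to 1667 ± 346 and 656 ± 187. The growth factor gene *Vegfa* went from 893 ± 258 to 12570 ± 1783 and 7328 ± 1075, and *Plaur*, which encodes the urokinase receptor, from 500.2 ± 48.2 to 3989 ± 256 and 2696 ± 269, all 3 genes passing the test at both times. Many of these genes answer to other factors as well, and binding of AP-1 was not measured. The paper took *Ptgs2* as a target of CREB, a factor that acts on genes with CRE sequences. By qPCR it reported that fenoterol raised *Ptgs2*, with the peak at 1 h.

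Because AP-1 genes also answer to handling and heat, heat shock genes were followed as a list of 12, of which 11 were tested. At 1 h 5 were higher, 0 lower and 6 not called, with a median log2 fold change of 0.247, and of all genes 10.0% were higher and 10.1% lower (median -0.00486). At 4 h 4 were higher, 1 lower and 6 not called (median 0.182), and of all genes 19.7% were higher and 20.4% lower (median 0.0042). At 1 h *Hsp90aa1* had a log2 fold change of 0.73 (SE 0.0936, adjusted p = 4.449e-05), *Dnaja1* 0.62, *Hspd1* 0.29 and *Dnajb1* 0.26. At 4 h *Hsph1* had 1.05 (SE 0.0875, adjusted p = 2.418e-07), *Dnaja1* 0.30 and *Hspd1* -0.28. *Hspa1a*, noted after its values were seen, averaged only 14.4 normalized counts and was called higher at both times. Its log2 fold changes were 1.32 at 1 h (adjusted p = 0.02392) and 2.08 at 4 h (adjusted p = 0.0002824). *Hspa1b*, with a mean of 13.1, was called higher at 4 h alone (1.04, adjusted p = 0.04513). The part of the heat shock genes in the AP-1 values was not tested.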

How the data were processed

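The 12 libraries hold mRNA of BMDMs of 4 mice in 3 groups (untreated, fenoterol 1 h, fenoterol 4 h). The authors made stranded mRNA libraries sequenced 50 bases from 1 end of each fragment on 1 lane, mapped these reads to GRCm38 with TopHat2 2.0.11 and counted them per gene with HTSeq 0.8.0. The authors deposited raw, unscaled counts, 1 column per library. Neither the annotation release nor the strand option of HTSeq is given in the sources used here. Reads where 2 genes overlap may therefore have been counted for the gene of their strand or left out of the counts. Genes were named with GENCODE M21, which matched 53274 of 53379 (the other 105 hold 0.0046% of the counts).

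The counts were filtered with filterByExpr, scaled by TMM and tested with the quasi-likelihood test of edgeR 4.0.16 in R 4.3.3, fitted once to all 12 libraries with group means alone. In the study's methods, counts were instead normalized with vsn and tested with limma. Benjamini-Hochberg adjustment ran over 12386 genes per comparison, with a threshold of 0.05. The SE is the absolute log2 fold change divided by the square root of F. Normalized counts are scaled by TMM to the mean library size, and TPM was computed here from the counts and the summed exon length.

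By the labels, equal numbers mark 1 mouse. The deviations of such libraries from the group means correlated with r of 0.290 to 0.561 (median 0.389, 12 pairs), and those of different mice with -0.304 to 0.0912 (median -0.127, 36 pairs), over 12386 genes. For pairs of replicates, chi-square per degree of freedom was 9.38 to 19.5, so no library was a repeat of another.

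The genes named are the 10 AP-1 genes, up to 4 genes per list and time with the largest changes among those past the threshold that averaged 50 normalized counts or more, the 3 genes of most similar course per AP-1 gene, and defining markers; 2 genes that this rule names are not reported here. The AP-1 genes, the lists and the tests were chosen with earlier results of these data known. Alternatives were DESeq2 1.42.0, limma-voom (limma 3.58.1), RLE normalization, no filter on low counts, library size only, the 2 groups compared alone, a minimum mean count of 50, a replicate block for the mouse, the longest transcript as gene length, a threshold of 0.01 and leaving out each library. Tables and figures were made with Python 3.11.15, NumPy 2.4.6, pandas 2.3.3 and matplotlib 3.10.9.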

Additional observations from a re-analysis of the deposited data

Results flagged for a closer look

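For all 9 tested AP-1 genes the change against untreated BMDMs differed between 1 h and 4 h (edgeR's quasi-likelihood test of 4 h against 1 h, adjusted p under 0.05), with both times set against the same untreated libraries. In the same test 18.7% of all 12386 genes were called higher and 19.8% lower. The calls of *Jund* and *Batf3* depended on the processing, as given below. The difference, as the log2 fold change at 4 h minus that at 1 h, was -6.32 for *Fosb*, -2.59 for *Junb*, -1.59 for *Fosl2* and -1.23 for *Fos*, 4 genes that were higher than untreated at both times. It was 1.36 for *Jun*, which was lower than untreated at both times, and -1.21 for *Atf3*, also lower at both. It was -0.76 for *Batf* and -1.69 for *Batf3*, which passed the test against untreated at 4 h and not at 1 h. For *Jund*, which passed at 1 h and not at 4 h, it was -0.44.

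The *Fosl1* value of mouse 1 after 4 h of fenoterol stood apart from the other libraries of its group, with 12.5 normalized counts against 3.13 to 4.67 (gap over range 0.835, above Dixon's 95% critical value for 4 samples). Of 30 groups tested in this way 1 stood out, where about 1.5 would by chance.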

How the results depend on the processing

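At 1 h all alternatives gave the same 5 rises and 2 falls in number among the AP-1 genes, and the count at 4 h was 7 or 8 and that between the times 7 to 9. The fit with the mouse as a replicate block gave 7 called AP-1 genes at 1 h, 8 at 4 h and 9 between the times, and changed no call (*Fos* at 1 h, log2 4.13, adjusted p = 5.6e-18; *Jund* at 4 h, 0.21, adjusted p = 0.06). Among all 12386 genes the block raised the number of calls from 2493 to 3348 at 1 h. At 4 h it went from 4958 to 5870, and between the times from 4773 to 5775. Of the log2 fold changes of AP-1 genes under an alternative, 557 kept direction and call, 3 turned and 4 lost the call. *Batf* at 1 h, not called in any fit, turned from 0.04 to -0.0283 with library size only, and was -0.0244 to 0.0998 with 1 library left out, below 0 without the untreated library of mouse 1 (-0.0057) or the 1 h library of mouse 3 (-0.0244). The fall of *Jund* between 1 h and 4 h lost its call with library size only (-0.35, adjusted p = 0.0561), without the 1 h library of mouse 4 (-0.30, adjusted p = 0.0597) and at a threshold of 0.01 (adjusted p 0.000606 to 0.0597 over its alternatives); the cause was not tested. *Batf3* between the times lost its call at 0.01 (adjusted p = 0.0158), and with a mean count of at least 50 it was filtered out and has no value. The shares of FOS-type level and of the rise kept at 4 h moved by less than the spread between mice in all 40 recomputed values. Other levels per length moved by more than this spread with the longest transcript as gene length: the summed family level in untreated BMDMs from 733 to 635 TPM, the *Junb* share of JUN-type level there from 36.6% to 42.3%, and the *Fosb* share of FOS-type level at 1 h from 16.8% to 21.1%. Depth limits *Fosl1*, *Batf3* and untreated *Fosb*, all at 35 counts or fewer per library.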
